A study of Homo sapiens with 8 samples.

Results

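The transcripts described here are those of the nuclear receptor genes of Caco-2 clone TC7, leaving out the NR4A, REV-ERB and RORA genes. The set takes its genes by symbol. Of 39 listed genes, 34 had a probe set with a gene name, out of 22458 named genes in all. The other 5, NR0B1 (DAX1), NR1H2 (LXR beta), NR1H4 (FXR), NR1I2 (PXR) and NR2F2 (COUP-TFII), had none named here and were not analysed here. Caco-2 is a line of human epithelial colon tumour cells, and TC7 is 1 clone of it, grown in high glucose medium with serum. The cells were still below confluence when they received 200 ng of plasmid and were left overnight. In 4 arrays the plasmid expressed CRTC1, a coactivator of the transcription factor CREB, and in the other 4 it was the matching empty vector pBS. The share of cells that took up plasmid and the promoter driving CRTC1 are not stated in the sources at hand.

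Nuclear receptors are transcription factors that bind DNA through a pair of zinc fingers, and most carry a pocket for a small lipid-soluble ligand such as a steroid, a retinoid, thyroid hormone, vitamin D or a bile acid. Many work as heterodimers with a retinoid X receptor, recruit corepressors without ligand and exchange them for coactivators when ligand binds. In the intestine they govern calcium and lipid uptake, bile acid handling and the breakdown of drugs. CREB binds the palindrome TGACGTCA and its shorter form TGACG, and CRTC1 is recruited to CREB on such sites.

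The start regions that carry these CREB motifs are shown first. Sites outside the start regions were not searched. RefSeq promoter windows of GRCh38.p14 were found for 30 of the 34 genes, in 80 windows since a gene can have several starts. VDR, NR0B2, NR2F6 and HNF4G had no entry. In the 250 bases before the start, the palindrome TGACGTCA lay in 2 of the 80 windows, 2.5% against 1.65% of all 35116 windows. The shorter motif TGACG, on either strand and counting those inside the palindrome, lay in 13 windows of 11 genes, 16.2% of windows against 21.2% of all. By gene it lay in 11 of the 30, against 24.9% of all 27305 genes, and the palindrome in 2 of the 30, against 2.03%. The 30 genes had 80 windows and the 27305 genes 35116, so shares by gene rest on unequal numbers of windows. Below are the 160 bases before the start of the genes with the palindrome, the orphan receptors NR2E1 and NR6A1, and of the receptors for glucocorticoids (NR3C1) and mineralocorticoids (NR3C2), with the motif letters in capitals. NR3C1 and NR3C2 had the highest and the lowest log2 change of the set. The other genes with only the shorter motif are not printed. NR3C1 had more than 1 window with the motif.
NR2E1, chr6:108165862-108166021, plus strand: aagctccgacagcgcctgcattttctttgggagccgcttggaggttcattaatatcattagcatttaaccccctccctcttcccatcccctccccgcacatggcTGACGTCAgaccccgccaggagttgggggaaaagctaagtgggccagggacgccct
NR6A1, chr9:124771312-124771471, minus strand: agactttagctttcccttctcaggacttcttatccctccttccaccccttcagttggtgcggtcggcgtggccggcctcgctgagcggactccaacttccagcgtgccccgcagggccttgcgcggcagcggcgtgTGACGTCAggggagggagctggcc
NR3C1, chr5:143403687-143403846, minus strand: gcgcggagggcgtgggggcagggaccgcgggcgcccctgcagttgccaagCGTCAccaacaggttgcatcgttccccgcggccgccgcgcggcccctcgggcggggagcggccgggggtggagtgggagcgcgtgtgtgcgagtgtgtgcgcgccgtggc
NR3C1, chr5:143434810-143434969, minus strand: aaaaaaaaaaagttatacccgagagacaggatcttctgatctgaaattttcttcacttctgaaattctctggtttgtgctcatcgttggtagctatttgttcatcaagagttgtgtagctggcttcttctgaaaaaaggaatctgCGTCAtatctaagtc
NR3C2, chr4:148445323-148445482, minus strand: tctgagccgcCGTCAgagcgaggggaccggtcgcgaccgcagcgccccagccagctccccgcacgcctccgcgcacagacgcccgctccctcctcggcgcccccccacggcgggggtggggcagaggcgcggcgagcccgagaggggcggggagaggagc

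The palindrome began 56 bases before the start of NR2E1 and 24 bases before that of NR6A1. These are matches of letters in a window, and binding was not measured.

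The values are log2 expression, 1 per probe set and array, with array medians between 4.11 and 4.15. CRTC1 itself lay between 11.46 and 12.52 with the CRTC1 plasmid, highest on replicate 1, and between 5.48 and 6.30 with empty vector, and it was the 1 gene past an adjusted p of 0.05 in limma's moderated test. The number of arrays, 4 in each group, limits the precision of every value below. The labels do not say that replicates came from separate cultures, so the spread may be technical. The deposited table held no detection calls, so the 95th percentile of the means of 354 olfactory receptor genes, a log2 value of 3.71, served as a floor. Of 14 epithelial and enterocyte markers 12 had a mean above it, all but the differentiation markers KRT20 and SI. So did 3 of 6 goblet and enteroendocrine markers, 2 of 5 leukocyte markers (CD14 and CD68), 1 of 7 fibroblast and muscle markers (COL1A1) and 1 of 5 endothelial markers (CLDN5). The defining leukocyte gene PTPRC and endothelial gene PECAM1 were not above it. These counts describe brightness over a common floor and do not measure cell shares. None of the epithelial and enterocyte markers reached an unadjusted p under 0.05 in limma, nor did any of the goblet and enteroendocrine or leukocyte markers. Of the fibroblast and muscle markers 1 did (PDGFRB, 2.95 with CRTC1 against 2.53), and of the endothelial markers 1 did (CLDN5, 4.10 against 3.77). Brightness differs between probe sets for reasons other than transcript amount, so levels are set side by side between groups and not ranked between genes. In RNA from whole cultures, fewer cells with a transcript and less of it per cell cannot be told apart.

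The comparison asked which of these receptor transcripts differ when CRTC1 is added. No receptor gene passed the adjusted threshold, as 0.00445% of all genes did, and the lowest adjusted p among the 34 was 0.837 in limma's moderated test. The vitamin D receptor gene VDR and the mineralocorticoid receptor gene NR3C2 had lower means with CRTC1 at an unadjusted p under 0.05, where 2.73% of all genes were lower. No receptor gene was higher at that level, against 3.2% of all genes. These 2 genes are 5.88% of the set, against 5.94% of all 22458 genes. Of the 34 genes 15 had a higher mean with CRTC1 and 19 a lower one, with a median log2 change of -0.02, against 48.6% higher and a median of -0.01 for all genes. In 1 gene, VDR, the arrays of the groups did not overlap, a share of 2.94% against 3.74% of all genes.

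Log2 changes ran from -0.45 to 0.23, and 4 of the 34 genes differed by more than 0.2 in either direction, 11.8% against 18.3% of all genes. The median size of the change was 0.0771 for the set and 0.0940 for all genes. No receptor differed 1.5-fold between the group means, as 0.494% of all genes did. For 31 of the 34 genes the 95% interval of the change lay wholly inside 1.5-fold in either direction, a log2 change of 0.585. That is a share of 91.2%, against 84.2% of all genes. For the other 3, VDR, NR3C2 and NR2E1, it reached beyond that on the lower side. The median width of the interval to either side was 0.276, and 0.272 for all genes. Differences smaller than these intervals were not resolved. Among the 34 genes 13 had means not above the floor of 3.71. For these the interval bounds the signal of a probe set and not a change of transcript.

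**Figure D1:**
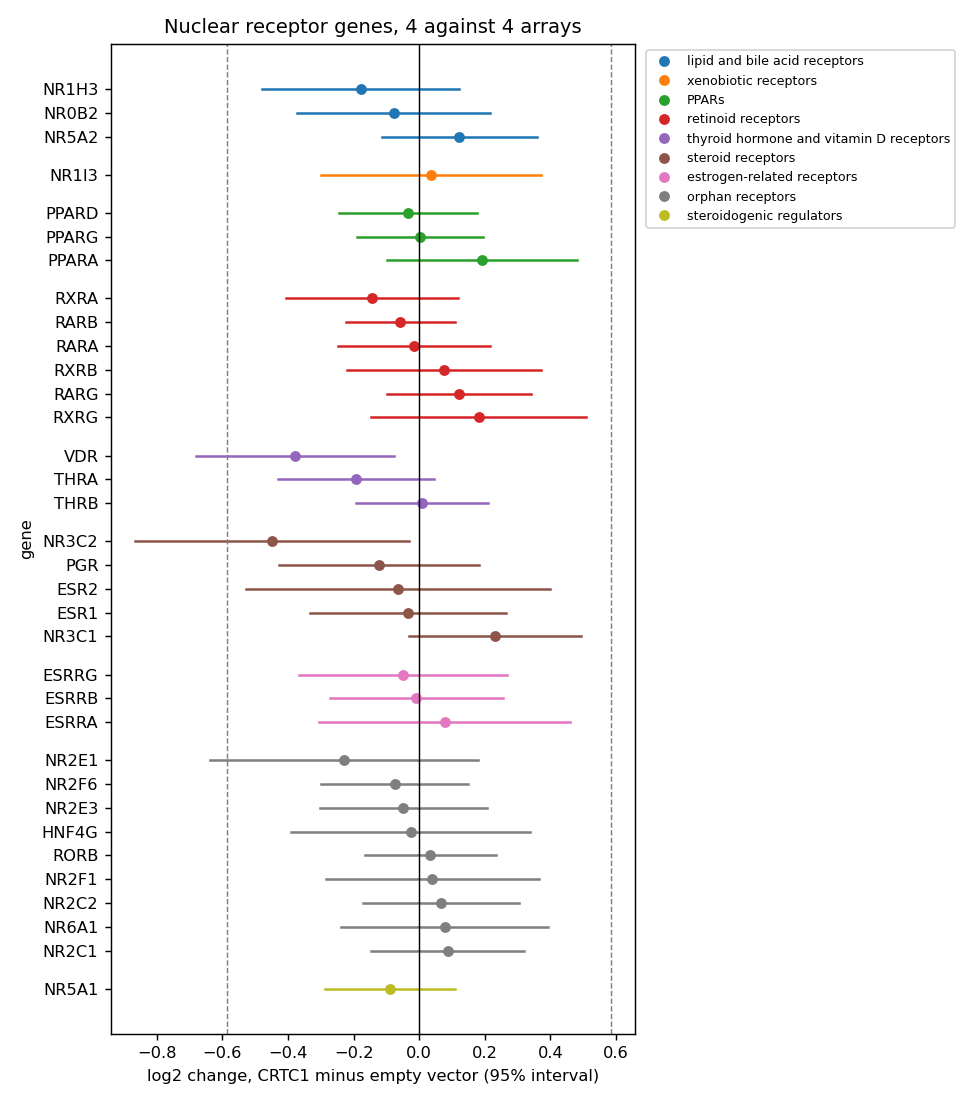
Log2 change (CRTC1 minus empty vector, horizontal axis) of the 34 receptor genes (vertical axis) with 95% intervals from limma, 4 arrays per group, coloured by role. Dashed lines mark 1.5-fold, and the intervals of VDR and NR3C2 are the 2 that leave out 0.

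Among the receptors for vitamin D and thyroid hormone, VDR (Entrez Gene 7421), which drives calcium absorption in the intestine, had values of 5.42, 5.89, 5.96 and 5.93 on CRTC1 replicates 1 to 4. With empty vector it had 6.00, 6.22, 6.15 and 6.34. All 4 CRTC1 arrays lay below all 4 controls, by a narrow margin between CRTC1 replicate 3 and empty vector replicate 1. The mean was 5.80 ± 0.254 against 6.18 ± 0.142 (SD, n = 4). This log2 change of -0.38 had a 95% interval of -0.68 to -0.08, equalled 0.769-fold and had an adjusted p of 0.837 in limma. The exact two-sided permutation p for this single value was 0.0286, the smallest that 4 against 4 arrays allow, before any adjustment for the number of genes. Without CRTC1 replicate 1, the lowest array, the log2 change was -0.25, and without empty vector replicate 4, the highest, the unadjusted p in limma was 0.0553.

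THRA, the alpha receptor for thyroid hormone, was likewise lowest on replicate 1 in each group. Its values were 5.93, 6.30, 6.30 and 6.27 on CRTC1 replicates 1 to 4 and 6.25, 6.42, 6.45 and 6.44 on the controls of those numbers. The groups overlapped through empty vector replicate 1, and the log2 change was -0.19 (adjusted p = 0.855 in limma). It was -0.10 without CRTC1 replicate 1. For THRB, the beta receptor, the means were 5.41 with CRTC1 and 5.40 with empty vector.

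The steroid receptors held the lowest and the highest log2 change of the set. NR3C2 (Entrez Gene 4306), the aldosterone receptor that controls sodium uptake in the distal colon, had values of 3.38, 3.35, 2.84 and 2.99 on CRTC1 replicates 1 to 4. On the controls it had 3.32, 3.66, 4.04 and 3.33, and the groups overlapped. Its mean was 3.14 ± 0.268 against 3.59 ± 0.339 (SD, n = 4), a log2 change of -0.45 with an interval of -0.87 to -0.03 (adjusted p = 0.837 in limma, exact permutation p = 0.171). The difference came most from replicate number 3, where the CRTC1 array was the lowest and the control the highest of the 8. The log2 change was -0.35 without CRTC1 replicate 3, -0.30 without empty vector replicate 3 and -0.20 without both. Its unadjusted p was above 0.05 without any 1 of CRTC1 replicates 3 and 4 and empty vector replicates 2 and 3. Its mean over the 8 arrays was not above the floor.

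NR3C1 (Entrez Gene 2908), the glucocorticoid receptor gene, lay on the other side. It had values of 7.01, 6.54, 6.58 and 6.65 on CRTC1 replicates 1 to 4 and of 6.51, 6.49, 6.56 and 6.31 on the controls. Replicate 1 was the highest CRTC1 array, and only CRTC1 replicate 2 lay within the range of the controls. The log2 change was 0.23 with an interval of -0.03 to 0.49 (adjusted p = 0.849 in limma, exact permutation p = 0.0571), and it was 0.13 without CRTC1 replicate 1. The sex hormone receptor genes ESR1, ESR2 and PGR had log2 changes of -0.03, -0.07 and -0.12, all on dim probe sets with means between 2.12 and 3.08.

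**Figure D2:**
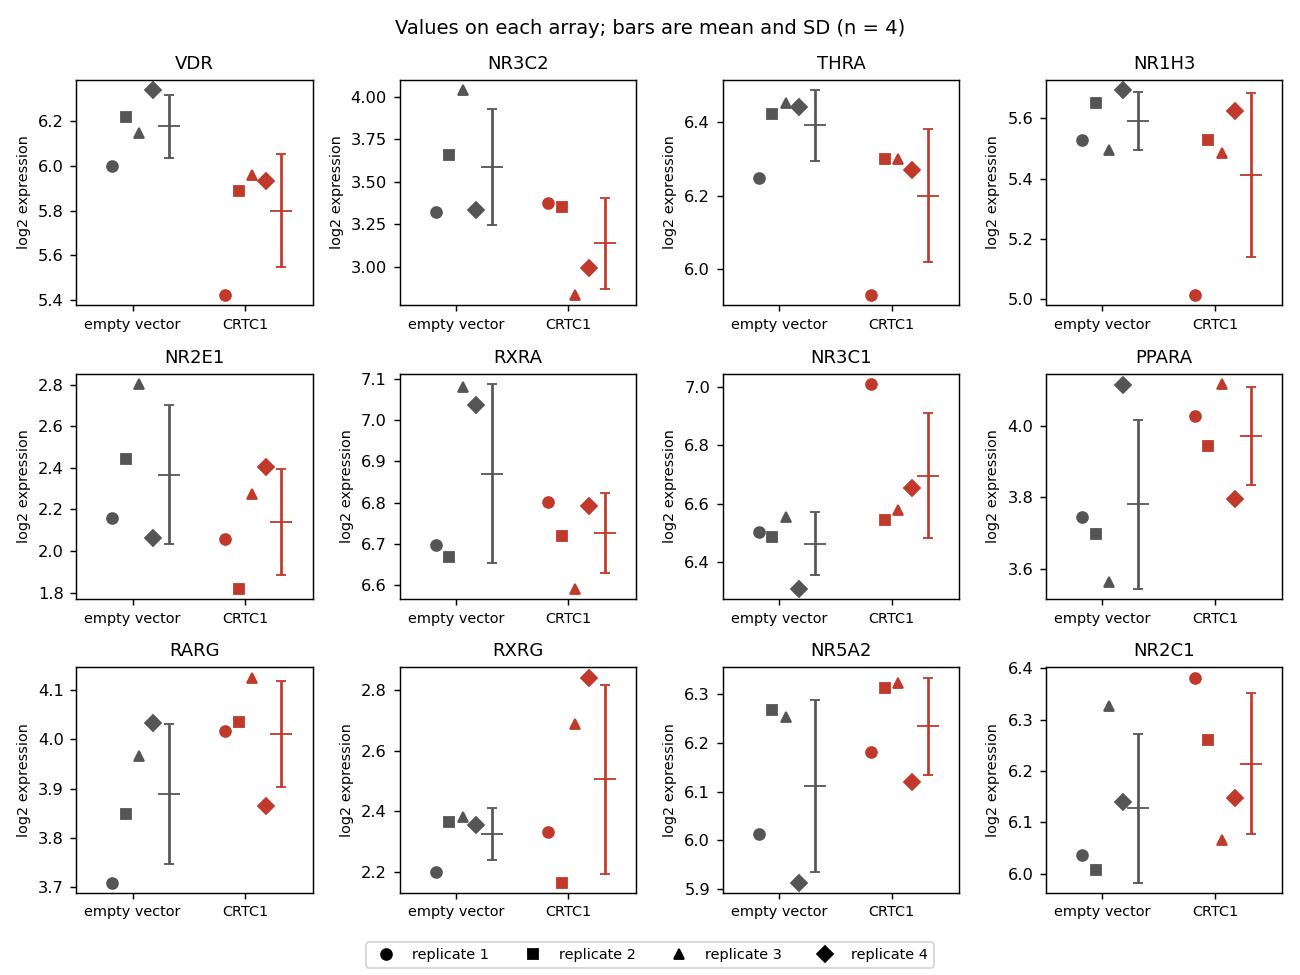
Log2 expression on each array (vertical axes, a separate range per gene) of the 6 genes with the smallest p in each direction, with empty vector in grey and CRTC1 in red. Marker shapes give the replicate number and bars the mean and SD of 4 arrays. VDR is the 1 gene whose groups do not overlap, and CRTC1 replicate 1 is the lowest of all 8 arrays for VDR, THRA and NR1H3 and the highest for NR3C1.

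Retinoid receptors split evenly, with 3 of 6 genes higher and 3 lower. RXRA, the retinoid X receptor that partners most heterodimers in epithelia, had values of 6.80, 6.72, 6.59 and 6.79 on CRTC1 replicates 1 to 4 and 6.70, 6.67, 7.08 and 7.04 on the controls. The controls made a low and a high pair, with the CRTC1 arrays mostly between them, and the log2 change was -0.14 (adjusted p = 0.878 in limma). It was -0.075 without empty vector replicate 3 and -0.09 without empty vector replicate 4. RXRB had a log2 change of 0.08 and RXRG, a form best known from muscle and brain, one of 0.18. RXRG lay at 2.33, 2.16, 2.69 and 2.84 on the CRTC1 arrays and between 2.20 and 2.38 on the controls, so CRTC1 replicates 3 and 4 were high and the other 2 were within or below the control range. Leaving out CRTC1 replicate 4 gave RXRG a log2 change of 0.07, and leaving out CRTC1 replicate 2 one of 0.295.

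Among the retinoic acid receptors RARA and RARB had log2 changes of -0.02 and -0.06. RARG had 4.02, 4.04, 4.13 and 3.87 on CRTC1 replicates 1 to 4 and 3.71, 3.85, 3.97 and 4.03 on the controls. The 2 groups of RARG values overlapped, with CRTC1 replicate 4 below 2 of the controls, and the log2 change was 0.12 (adjusted p = 0.878 in limma), or 0.06 without empty vector replicate 1.

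The peroxisome proliferator-activated receptors sense fatty acids. PPARG, which is abundant in colon epithelium, differed least of the whole set, with 6.91 ± 0.0828 against 6.91 ± 0.103 (SD, n = 4) and an interval of the log2 change of -0.19 to 0.19. PPARD had a log2 change of -0.03, from 5.28 ± 0.149 to 5.24 ± 0.0689 (SD, n = 4). PPARA, which drives fatty acid oxidation, had values of 4.03, 3.94, 4.12 and 3.79 on CRTC1 replicates 1 to 4. Its controls lay at 3.75, 3.70, 3.56 and 4.11, and 3 of the 4 were below every CRTC1 array. The log2 change was 0.19 (adjusted p = 0.864 in limma). Without empty vector replicate 4 it was 0.30 at an unadjusted p of 0.0199 in limma, with an adjusted p of 0.925, and without empty vector replicate 3 it was 0.12.

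Of the receptors for sterols and bile acids, NR1H3 encodes the oxysterol receptor LXR alpha, which raises cholesterol efflux. It had values of 5.02, 5.53, 5.48 and 5.62 on CRTC1 replicates 1 to 4 and 5.53, 5.65, 5.49 and 5.69 on the controls. CRTC1 replicate 1 stood far below the rest, and the log2 change of -0.18 (adjusted p = 0.873 in limma) was -0.05 without it. NR5A2 (LRH-1), a regulator of bile acid synthesis and crypt renewal, had 6.18, 6.31, 6.32 and 6.12 with CRTC1 and 6.01, 6.27, 6.25 and 5.91 with empty vector. Each CRTC1 array was above the control of its number, which also held for NR3C1. For VDR, THRA and NR1H3 each was below it, and the labels state no pairing by number. The NR5A2 groups overlapped and the log2 change was 0.12 (adjusted p = 0.879 in limma), or 0.06 without empty vector replicate 4. NR0B2 (SHP), a repressor without a DNA-binding domain that is itself induced by FXR, had a log2 change of -0.08. The xenobiotic receptor gene NR1I3 (CAR) had 4.25 ± 0.230 against 4.21 ± 0.238 (SD, n = 4).

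The estrogen-related receptors, which have no known natural steroid ligand and drive genes of oxidative metabolism, had log2 changes of 0.08 (ESRRA), -0.01 (ESRRB) and -0.05 (ESRRG). ESRRA had an SD of 0.368 with CRTC1 and of 0.127 with empty vector, and this difference in spread was not tested. NR5A1 (SF-1), known from steroid-producing glands, had a log2 change of -0.09.

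Orphan receptors made up 9 of the measured genes, 5 with a higher mean and 4 with a lower one. NR2E1 (TLX), a factor of neural stem cells whose start region holds the palindrome shown above, had values of 2.06, 1.82, 2.28 and 2.40 on CRTC1 replicates 1 to 4. It had 2.16, 2.44, 2.80 and 2.06 on the controls, and the log2 change was -0.23 with an interval of -0.64 to 0.18 (adjusted p = 0.877 in limma). It was -0.08 without empty vector replicate 3 and -0.12 without CRTC1 replicate 2. The other gene with the palindrome, NR6A1 (GCNF), had a log2 change of 0.08 with an interval of -0.24 to 0.39. The 11 genes with the shorter motif had log2 changes from -0.45 to 0.23, 5 of them above 0 and 6 below.

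NR2C1 (TR2) had 6.38, 6.26, 6.07 and 6.15 on CRTC1 replicates 1 to 4 and 6.04, 6.01, 6.33 and 6.14 on the controls. The groups overlapped in part, with controls 1 and 2 below every CRTC1 array and CRTC1 replicate 1 above every control, and the log2 change was 0.09. With 1 array left out it ran from 0.03 (without CRTC1 replicate 1) to 0.15 (without empty vector replicate 3). Its close relative NR2C2 (TR4) had 0.07. The remaining orphan receptors NR2F1, NR2F6, NR2E3, RORB and HNF4G, the last a factor of enterocyte gene expression, had log2 changes between -0.07 and 0.04.

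Several receptor genes varied together between arrays. VDR, THRA and NR1H3 were lowest, and NR3C1 highest, on CRTC1 replicate 1. Their deviations from the CRTC1 mean on that array were -0.38, -0.27, -0.40 and 0.31. These 4 genes were chosen after their values were seen. Over the 8 arrays, the deviation of VDR from its group mean correlated with that of THRA at r = 0.946, with that of NR1H3 at 0.927 and with that of NR3C1 at -0.914, as a description of arrays that share their normalization. Without CRTC1 replicate 1 these values were 0.773, 0.660 and -0.644 over 7 arrays, and without both arrays of replicate number 1 they were -0.193, 0.651 and -0.794 over 6. The likeness of VDR and THRA thus rested on the 2 arrays of that number. The deviations of THRA also went from 0.855 with NR1H3 and -0.831 with NR3C1 over all 8 arrays to -0.76 and -0.184 over those 6, so THRA did not follow the others there. CRTC1 replicate 1 was also the array with the highest CRTC1 value, and the part of that in these deviations was not tested. Over all 34 genes it was the lowest array in 8, close to the 7 of empty vector replicate 2, and empty vector replicates 3 and 4 were each the highest in 8. Correlations of this size were not particular to VDR, THRA, NR1H3 and NR3C1. Over the 8 arrays the deviations of PGR and HNF4G had r = 0.934, and those of NR0B2 and ESRRA had r = -0.909.

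**Figure D3:**
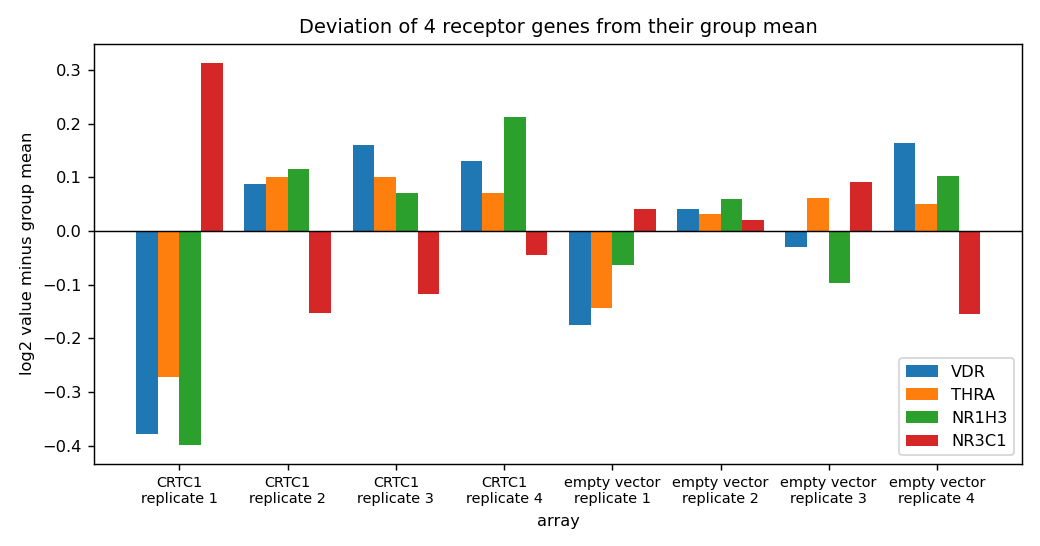
Log2 value minus the group mean (vertical axis) of VDR, THRA, NR1H3 and NR3C1 on each of the 8 arrays (horizontal axis). On CRTC1 replicate 1 the first 3 lie between -0.40 and -0.27 and NR3C1 at 0.31.

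The set was also described by level, above the floor or not. Of the 34 genes 21 had a mean above the floor of 3.71. The 13 that did not were NR3C2, NR2E1, RXRG, NR5A1, PGR, RARB, NR0B2, NR2E3, RORB, ESRRG, ESRRB, ESR1 and ESR2, and these are not shown to be expressed. Above the floor 13 of 21 receptor genes had a higher mean with CRTC1, with a median log2 change of 0.04, against 44.9% of all genes above it. Not above the floor 2 of 13 did, with a median of -0.06, against 53.3% of all genes there. No test was made of either count.

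Genes that act with the receptors were examined as lists of coactivators, corepressors, enzymes of ligand synthesis and breakdown, and known targets. Together they held 89 measured genes outside the set, of which 46 had a higher and 43 a lower mean, with a median log2 change of 0.01. None passed the adjusted threshold (lowest adjusted p = 0.837 in limma). Below an unadjusted p of 0.05 lay 2, both higher, or 2.25% against 5.94% of all genes. They were the retinoid-responsive gene RARRES1 and XBP1, an estrogen receptor target that also encodes a factor of the unfolded protein response.

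RARRES1 lay at 3.14 with CRTC1 and 2.60 with empty vector, without overlap between the groups and not above the floor. Its log2 change was 0.54 (adjusted p = 0.837 in limma). The other genes of the retinoic acid list were close to 0, with DHRS3, a retinal reductase, at 0.10, and the list's median was 0.01. XBP1 had a log2 change of 0.25 and the cyclin gene CCND1 of the same list -0.08.

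Of 10 coactivator genes 7 had a higher and 3 a lower mean, with the acetyltransferase genes EP300 at 0.19 and CREBBP at 0.15. The methyltransferase gene CARM1 was the 1 coactivator gene whose groups did not overlap, at 7.86 with CRTC1 and 7.97 with empty vector, a log2 change of -0.11 (adjusted p = 0.864 in limma). Over the 89 related genes 2 did not overlap, CARM1 and RARRES1, or 2.25% against 3.74% of all genes. Of 7 corepressor genes 3 were higher and 4 lower, with the demethylase gene KDM1A at -0.10 and NRIP1 at -0.11. Among 17 genes of ligand synthesis and breakdown 9 were higher and 8 lower, with the sterol hydroxylase gene CYP27A1 at -0.21. CYP27A1 was not above the floor. None of these 3 lists had a gene at an unadjusted p under 0.05 in limma.

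Target lists of single receptors gave no gene at that level except the RARRES1 and XBP1 values above. The 7 targets of VDR had 5 higher and 2 lower means and a median of 0.03, with the calcium-binding protein gene S100G at -0.19 and the calcium pump gene ATP2B1 at 0.04. The 8 glucocorticoid receptor targets had 5 higher and 3 lower means and a median of 0.08, with TSC22D3, which encodes the mediator GILZ, at -0.34 and the factor gene KLF9 at 0.16. KLF9 is also 1 of 5 thyroid hormone targets, where the alkaline phosphatase gene ALPI was at -0.23. The LXR list held MYLIP, a degrader of the LDL receptor, at 0.14 and the cholesterol exporter gene ABCA1 at -0.18. Of the target genes named here, S100G, TSC22D3, KLF9 and ABCA1 had means not above the floor.

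For bile acid and drug receptors, the FXR targets FABP6, an ileal bile acid binder, and FGF19, a hormone that lowers bile acid synthesis, were at -0.29 and 0.23. FGF19 was not above the floor. The PXR and CAR targets had the highest median among the target lists, 0.13, with 4 higher and 2 lower means. CYP2B6, a drug-oxidising enzyme, was at 0.29 and UGT1A1, a glucuronosyltransferase that shares exons with its neighbours so that its own level is uncertain, at 0.25. In the PPAR list the lipase inhibitor gene ANGPTL4 was at -0.22 and ACADM, an enzyme of fatty acid oxidation also in the list of estrogen-related receptor targets, at -0.09. The Krebs cycle gene IDH3A of that last list was at -0.10.

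**Figure D4:**
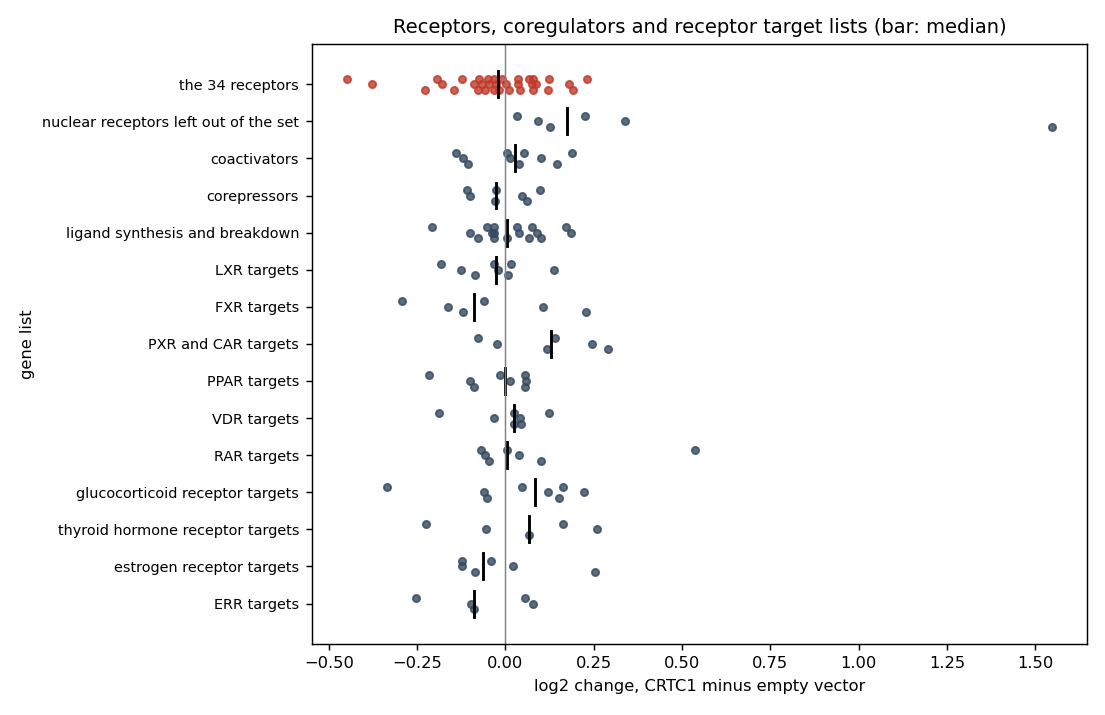
Log2 change (CRTC1 minus empty vector, horizontal axis) of each measured gene in the receptor set (red) and in the related lists (dark), with a black bar at each list's median. List medians lie between -0.09 and 0.18, and the point at 1.55 is NR4A2.

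Of 9 nuclear receptor genes left out of the set 6 were measured, all with a higher mean and a median log2 change of 0.18. The other 3 had no named probe set. NR4A2, an orphan receptor gene and CREB target, had 1.55 and RORA, a clock factor, 0.34, both at an unadjusted p under 0.05 and an adjusted p of 0.837 in limma. These 2 are 33.3% of the 6, against 5.94% of all genes. NR4A2 had values of 6.01, 3.95, 4.40 and 3.91 on CRTC1 replicates 1 to 4, so replicate 1 stood far above the rest. Its controls lay at 2.84, 3.22, 3.28 and 2.73, with a mean of 3.02 that was not above the floor. The difference of these left-out genes from the 34 genes was not tested.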

How the data were processed

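Total RNA of 8 samples was labelled with biotin by the Affymetrix whole-transcript sense target method, per the labels. The file deposited by the authors holds log2 expression from 0.832 to 12.87, 1 per probe set and array. Partek is named without a version or role, per the submitters' processing notes, and no source at hand states the background correction or the normalization. Since all arrays had nearly equal distributions, a change common to most genes would stay hidden. Of 23786 probe sets, 22458 had 1 gene symbol, 0 several and 1328 none, and all 22458 matched the RefSeq table of GRCh38.p14 by Entrez identifier, which gave current symbols. Limma 3.58.1 in R 4.3.3 fitted the 2 groups to all named genes, without a block, with empirical Bayes moderation and Benjamini-Hochberg adjustment at 0.05. Single values were also permuted over all 70 divisions of the 8 arrays. The steps were tested on simulated data.

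Named genes were those with the smallest p (6 per direction), 1 per role otherwise unnamed, their paralogs and 2 per related list; other receptors were added to account for the set. The members and lists were chosen with earlier results of these data known. Alternatives covered a replicate block, normalization, filters on dim genes, variance models, array weights, all probe sets and arrays left out.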

Additional observations from a re-analysis of the deposited data

Results flagged for a closer look

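In 5 of 68 groups of 4 arrays, 1 array lay far from the other 3 by Dixon's test, where chance gives about 3.4. For VDR this was CRTC1 replicate 1, at 5.42, while the remaining CRTC1 arrays ranged from 5.886 to 5.959. For THRA it was again CRTC1 replicate 1, at 5.93, with the rest from 6.271 to 6.300. THRA was also low, at 6.25, on empty vector replicate 1, with the rest of the controls from 6.424 to 6.454. RXRG was low on that control array too, at 2.20, with the rest from 2.355 to 2.381. For RXRB it was CRTC1 replicate 2, at 6.22, with the rest from 6.329 to 6.341.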

How the results depend on the processing

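No receptor gene passed the adjusted threshold in any of the 20 alternatives, and CRTC1 passed in each, with a log2 change from 5.61 to 6.20. Genes past the threshold numbered 2 with a variance trend and robust moderation. All genes at an unadjusted p under 0.05 came to 829 when only the 11229 genes not below the median level were tested. That is a share of 7.38%, against 5.94% in the main fit. Receptors at that level numbered 1 (VDR) above the median or the olfactory floor, which drop NR3C2. That is 5.88% against 7.38% of all genes for the median, and 4.76% against 7% for the floor. With arrays left out 0 to 2 of the 34 receptors were at that level, at most 5.88%, against 4.73% to 6.61% of all genes. NR3C2 was lost without CRTC1 replicate 3 (unadjusted p = 0.105 in limma) or 4 (0.0897) or empty vector replicate 2 (0.0779) or 3 (0.1). It was also lost without both arrays of number 2 (0.0646), 3 (0.23) or 4 (0.0616). VDR was lost without empty vector replicate 4 (0.0553), where PPARA was gained, and without both arrays of number 2 (0.0544) or 4 (0.0531). PPARA was gained again without both arrays of number 4 (unadjusted p = 0.00918 in limma, adjusted p = 0.872), and in no other alternative. The set's median was 0.0359 above the olfactory floor, and -0.0456 to 0.00352 with arrays left out. Of 463 values of 24 named receptors 424 kept their direction and 39 took the other. ESRRB was at 0.0134 with array weights. With arrays left out, log2 changes ran from -0.0453 to 0.142 (NR1I3), -0.0545 to 0.242 (ESRRA), -0.0743 to 0.0921 (RARA), -0.0387 to 0.169 (RXRB), -0.0765 to 0.0318 (PPARD), -0.042 to 0.0402 (PPARG), -0.0308 to 0.0637 (THRB), -0.15 to 0.0654 (ESRRB), -0.204 to 0.0671 (ESRRG) and -0.052 to 0.135 (NR2C2). Apart from alternatives with fewer genes or arrays, the causes were not tested. With a replicate block VDR (unadjusted p = 0.00607 in limma) and THRA (0.0449) were under 0.05 and NR3C2 (0.0706) was not, with a lowest adjusted p of 0.602 among the receptors. All genes under an unadjusted p of 0.05 with that block numbered 1677, or 7.47%, against 5.88% of the receptors. Arrays with equal numbers share only a number in the labels; each CRTC1 array correlated best with the control of its number (r from 0.0385 to 0.251), as a hint from the data. Without detection calls, dim receptors could not be separated from background.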
